A study of Mus musculus with 6 samples.

Results

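The matrix metalloproteinases (MMPs), the secreted ADAMTS proteases and their inhibitors, the tissue inhibitors of metalloproteinases (TIMPs), were followed in bone-marrow-derived macrophages (BMDMs) with and without CITED2. The genes were taken by symbol alone, as every listed gene named *Mmp*, *Adamts* or *Timp* followed by a number, which gave 37 of 22248 listed genes: 19 MMPs, 14 ADAMTS and 4 TIMPs. The RNAseq series held 3 control libraries, of *Lyz2*cre genotype, and 3 CITED2-deficient libraries, of *Cited2*fl/fl:*Lyz2*cre genotype, all C57BL/6 and labelled as postnatal week 10, although the study's methods give a younger age for BMDM donors. Both genotypes carried one *Lyz2* Cre allele, in which the myeloid *Lyz2* locus drives the recombinase, and the CITED2-deficient mice also carried floxed *Cited2* on both chromosomes. Bone marrow cells were grown with macrophage colony-stimulating factor and no stimulus is named for these libraries. CITED2 is a nuclear protein that binds the coactivators CBP and p300, and the comparison asked what its loss changes in resting macrophages.

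MMPs are zinc-dependent endopeptidases that are made as inactive proenzymes and, once their propeptide is removed, cut collagens, elastin, proteoglycans and many secreted or surface proteins. ADAMTS enzymes are related secreted proteases with thrombospondin repeats that process procollagens or cleave proteoglycans such as versican and aggrecan. TIMPs bind the active site of MMPs and, to differing degrees, of ADAMTS and ADAM enzymes, and macrophages supply both proteases and inhibitors to inflamed and remodelling tissue.

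Of the 37 genes, 7 MMP genes lie in one cluster on chromosome 9, all on the forward strand, over 427 kb from 7272514 to 7699585 (GRCm38, the assembly that mm10 is). Their upstream sequences are shown because the genes of this one cluster behaved differently in the comparison below, with *Mmp13*, *Mmp12* and *Mmp8* higher in CITED2-deficient BMDMs and *Mmp27* overlapping between the genotypes. Each line gives the 120 bases before the RefSeq transcript start of GRCm38.p6, 5′ to 3′ on the forward strand, and capitals mark the AP-1 element TGANTCA and the TATA box TATAAA, both searched on either strand.

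Mmp13: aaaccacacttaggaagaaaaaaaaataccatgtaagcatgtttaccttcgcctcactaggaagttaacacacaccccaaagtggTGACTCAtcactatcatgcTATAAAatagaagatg
Mmp12: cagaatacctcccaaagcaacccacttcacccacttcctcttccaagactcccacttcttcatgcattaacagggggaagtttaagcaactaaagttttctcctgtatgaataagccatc
Mmp3: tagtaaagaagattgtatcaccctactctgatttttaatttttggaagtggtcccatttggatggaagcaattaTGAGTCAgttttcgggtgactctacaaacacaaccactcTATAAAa
Mmp10: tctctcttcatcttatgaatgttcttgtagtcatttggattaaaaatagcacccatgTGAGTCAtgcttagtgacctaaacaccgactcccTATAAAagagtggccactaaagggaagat
Mmp8: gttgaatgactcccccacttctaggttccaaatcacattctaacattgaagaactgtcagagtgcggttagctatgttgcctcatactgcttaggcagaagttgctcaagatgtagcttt
Mmp27: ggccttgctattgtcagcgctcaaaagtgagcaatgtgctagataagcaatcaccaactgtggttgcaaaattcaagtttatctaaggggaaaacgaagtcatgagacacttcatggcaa
Mmp7: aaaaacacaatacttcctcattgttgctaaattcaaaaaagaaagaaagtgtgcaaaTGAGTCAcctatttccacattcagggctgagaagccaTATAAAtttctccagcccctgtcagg

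These windows are, in the same order, chr9:7272394-7272513, chr9:7344277-7344396, chr9:7445702-7445821, chr9:7502222-7502341, chr9:7558309-7558428, chr9:7571276-7571395 and chr9:7691970-7692089. Within the 250 bases before the start, the AP-1 element was found for *Mmp13*, beginning 35 bases before the start, for *Mmp3* at 46, and for *Mmp10* and *Mmp7* at 63, and each of those 4 windows also held TATAAA. No match to either element lay in the windows of *Mmp12*, *Mmp8* and *Mmp27*. RefSeq promoters were matched for 26 of the 37 genes, of which 4 (15.4%) held TGANTCA, against 6.75% of 32851 promoter windows of the same length. TATAAA was present in 6 of the 26 (23.1%), the other two being *Adamts1* and *Mmp21*, against 12.4% of all windows. The STAT element TTCNNNGAA was in 0 of 26, against 7.02% of all windows. Among the cluster genes, then, the letters of the AP-1 element occurred in the window of *Mmp13*, which was higher in CITED2-deficient BMDMs, and also in those of *Mmp3*, *Mmp10* and *Mmp7*, which were low or near 0 in both genotypes.

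**Figure D1:**
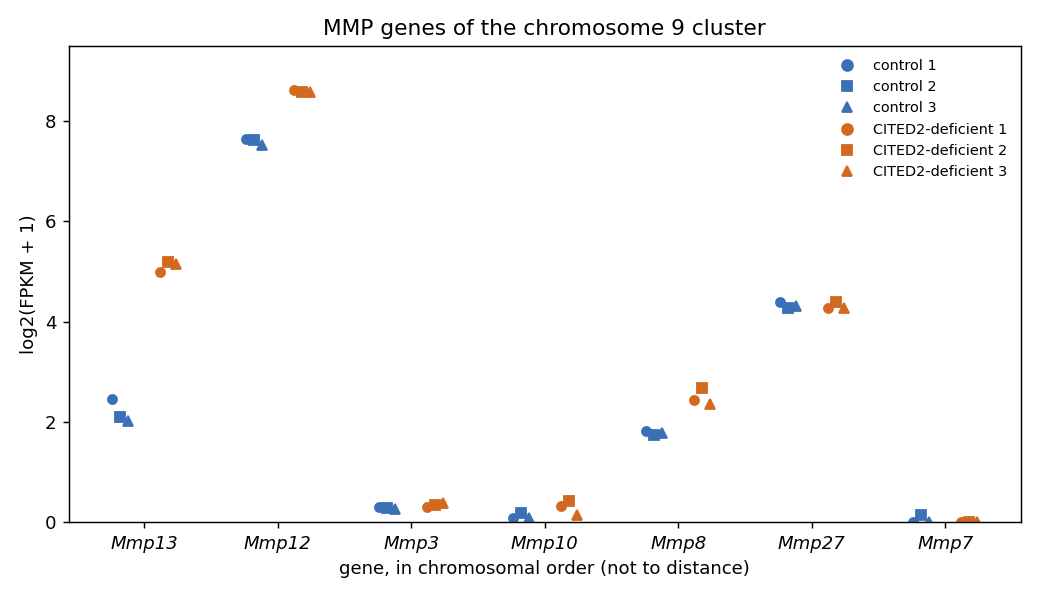
MMP genes of the chromosome 9 cluster, in chromosomal order. The vertical axis gives log2(FPKM + 1), where FPKM is fragments normalised for transcript length and depth, and each symbol is 1 of the 3 control (blue) or 3 CITED2-deficient (orange) libraries. *Mmp13*, *Mmp12* and *Mmp8* sit higher in all 3 CITED2-deficient libraries, *Mmp27* overlaps, and *Mmp3*, *Mmp10* and *Mmp7* stay near the floor.

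Levels are given as FPKM, which is scaled for transcript length and library depth, and recovered totals were between 17289286 and 18952077 fragments in the control and between 22583995 and 26100410 in the CITED2-deficient libraries. *Cited2* itself stood at an FPKM of 71.7, 79.3 and 75.5 in control and at 9.27, 7.22 and 7.53 in CITED2-deficient libraries, low in every library with the floxed genotype. The 8 macrophage markers had a summed FPKM from 5624 to 5694 in control and from 5287 to 5367 in CITED2-deficient BMDMs. Past the threshold, 1 of 8 was higher and 5 of 8 were lower, against 16.7% and 34.6% of all tested genes. *Fcgr1* was the higher one (log2 fold change 1.48), while *Lyz2* (-1.59) and *Itgam* (-0.81) fell most. *Lyz2* was also the scarcest of the 8, with a mean FPKM of 31.3 in control and 9.75 in CITED2-deficient BMDMs. Its locus carries the Cre allele in both genotypes, and the effect of that allele on its level was not tested. The threshold used throughout is a Benjamini-Hochberg adjusted p of 0.05 from limma on log2(FPKM + 1), fitted over the 11687 genes averaging an FPKM of at least 1, and each fold change below is on that scale, which understates changes of low genes. Over all tested genes, the log2 fold change had a median of -0.10. Since these are bulk libraries, fewer cells of a type and less RNA per cell cannot be told apart.

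CITED2-deficient BMDMs held more transcript of several matrix-degrading enzymes, with *Mmp12*, the macrophage elastase, at 2.01 times and *Mmp13*, a collagenase, at 9.27 times their mean FPKM in control BMDMs. *Timp1* and *Timp3* were also higher, at 2.95 and 6.66 times (2.59 and 4.33 times without CITED2-deficient replicate 1). *Timp2*, by far the most abundant inhibitor, was at 1.02 times and did not pass the threshold, except after median-ratio or quantile scaling. Of the 37 genes, 16 had a mean FPKM of at least 1 and were tested, and 10 of them were higher, 2 lower and 4 not past the threshold. Among all tested genes 16.7% were higher and 34.6% lower by the same test. The libraries of the groups did not overlap for the same 12 genes, 10 with every CITED2-deficient library above (19.0% of all tested genes) and 2 with every one below (40.9%). A fold change of at least 2 together with the threshold was reached upwards by 9 of the 16, against 3.72% of all tested genes, and the median log2 fold change of the 16 was 1.10. The filter bears on those counts, because *Mmp23* and *Adamts1* had control means under an FPKM of 1 and entered the test through their CITED2-deficient values. Over all 37 genes, without any filter, 26 had a higher and 11 a lower mean FPKM in CITED2-deficient BMDMs, and 42.2% of all listed genes had a higher mean. The median log2 fold change over the 37 was 0.14, against -0.026 over every listed gene.

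**Figure D2:**
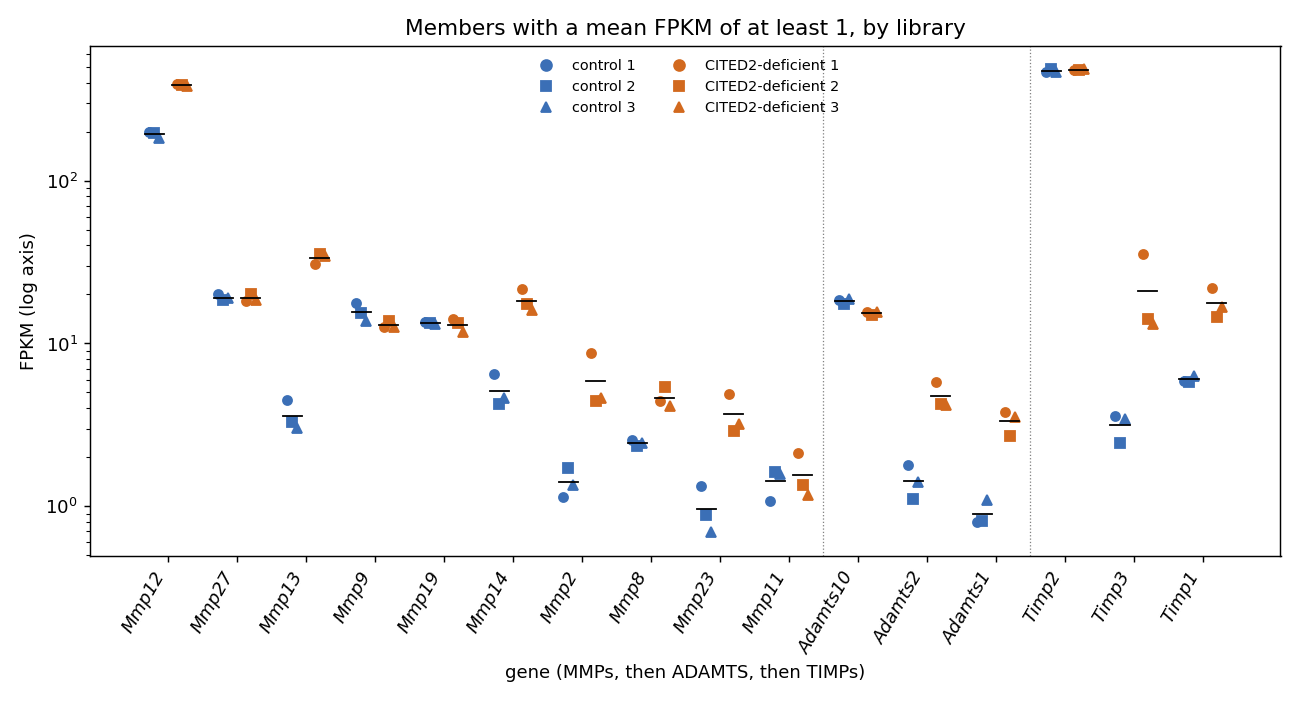
FPKM (log axis) of the 16 genes with a mean of at least 1, each symbol being 1 library and each horizontal line a group mean. Control libraries are blue and CITED2-deficient libraries orange, and the symbol shape gives the replicate number. The groups separate for *Mmp13*, *Mmp14* and *Timp1*, overlap for *Mmp11*, *Mmp19*, *Mmp27* and *Timp2*, and CITED2-deficient replicate 1 stands above replicates 2 and 3 for *Timp3* and *Mmp2*.

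The secreted collagenases cut the triple helix of fibrillar collagens, and both listed ones were higher. *Mmp13* (ENSMUSG00000050578, chromosome 9, 7272514 to 7283331), the main interstitial collagenase of the mouse, had an FPKM of 4.49, 3.29 and 3.04 in control and of 30.7, 35.4 and 34.3 in CITED2-deficient libraries. Every CITED2-deficient library lay far above every control library, with means of 3.61 ± 0.777 and 33.5 ± 2.49 (SD, n = 3 each). The log2 difference between the means of log2(FPKM + 1) was 2.91 (standard error, SE, 0.11, limma adjusted p = 7.1e-08), and with any 1 library left out it stayed between 2.82 and 3.05. *Mmp8* (chromosome 9, 7558456 to 7568485), best known as the neutrophil collagenase, had an FPKM of 2.55, 2.36 and 2.44 in control and of 4.41, 5.37 and 4.12 in CITED2-deficient libraries. The groups did not overlap, and the log2 fold change was 0.70 (SE 0.11, limma adjusted p = 0.000591). Beside *Mmp8*, the markers of neutrophil precursors went mostly the other way: 6 of 8 tested were lower and 1 higher, against 34.6% and 16.7% of all tested genes. *Mpo*, *Prtn3* and *Elane*, the granule proteases of early precursors, had log2 fold changes of -2.54, -2.12 and -2.08. *Camp* (-0.99), *S100a8* (-0.40) and *Ngp* (-0.33) were the other lower ones, and *Ltf*, the late granule protein lactoferrin, was the only higher one (0.90). The summed FPKM of all 9 neutrophil precursor markers ran from 740 to 810 in control and from 661 to 780 in CITED2-deficient libraries, and none of the 9 was at 0 in all libraries. Their part in the *Mmp8* difference was not tested.

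*Mmp12* (ENSMUSG00000049723, chromosome 9, 7344381 to 7369499), the macrophage elastase, was the most abundant MMP. Its FPKM was 198, 197 and 183 in control and 393, 385 and 382 in CITED2-deficient libraries, so that the spread within a genotype was small beside the distance between the genotypes. Left-out libraries moved its log2 fold change of 1.00 (SE 0.03, limma adjusted p = 3.6e-08) only between 0.97 and 1.02. *Mmp7*, or matrilysin, was under 10 fragments in every library.

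The gelatinases, which digest denatured collagen and basement membrane collagen, moved in opposite directions. *Mmp2* (chromosome 8, 92827291 to 92853420) had an FPKM of 1.14, 1.73 and 1.35 in control and of 8.71, 4.42 and 4.63 in CITED2-deficient libraries. All CITED2-deficient values were above the control ones, but replicate 1 was 1.93 times the mean of the other two. The log2 fold change of *Mmp2* was 1.48 (SE 0.21, limma adjusted p = 0.000427) and 1.21 without that library (limma adjusted p = 0.0002). *Mmp9* (chromosome 2, 164940780 to 164955850), the gelatinase of myeloid cells and osteoclasts, had an FPKM of 17.7, 15.3 and 13.8 in control and of 12.7, 13.7 and 12.6 in CITED2-deficient libraries. The lowest control value, 13.8, was barely above the highest CITED2-deficient value, 13.7. With a log2 fold change of -0.24 (SE 0.08) *Mmp9* passed narrowly as lower (limma adjusted p = 0.0408), and it no longer passed without control replicate 1 (log2 fold change -0.15, limma adjusted p = 0.13), control replicate 2, CITED2-deficient replicate 1 or CITED2-deficient replicate 3, nor after median-ratio scaling (-0.14, limma adjusted p = 0.206). Of the markers of osteoclasts, which also make *Mmp9*, 3 were tested. *Ctsk* was higher (log2 fold change 0.53), *Nfatc1* was lower (-0.19) and *Acp5* did not pass, where 16.7% of all tested genes were higher and 34.6% lower. The summed FPKM of the 5 listed markers was 60.4 to 62.3 in control and 71.0 to 77.8 in CITED2-deficient libraries, with *Ctsk* at a mean of 33.0 and 48.0. The part of these markers in the *Mmp9* values was not tested.

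Membrane-type MMPs are held at the cell surface, where *Mmp14* (ENSMUSG00000000957, chromosome 14, 54431612 to 54445364) cuts collagen and, together with TIMP2, activates the MMP2 proenzyme. *Mmp14* had an FPKM of 6.49, 4.24 and 4.61 in control and of 21.6, 17.4 and 16.0 in CITED2-deficient libraries. Without overlap between the groups, its log2 fold change was 1.67 (SE 0.15, limma adjusted p = 1.65e-05). *Mmp14* and *Mmp2* were thus both higher, whereas *Timp2*, the third gene of that activation complex, did not pass the threshold on deposited values. After median-ratio scaling *Timp2* passed as higher, with a log2 fold change of 0.13 (limma adjusted p = 0.00694). The other membrane-type genes, *Mmp25*, *Mmp16*, *Mmp17* and *Mmp15*, were below an FPKM of 1 and are described with the low genes.

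Of the remaining MMPs, *Mmp23* was higher and *Mmp11*, *Mmp19* and *Mmp27* did not pass. *Mmp23* (chromosome 4, 155650655 to 155653384), whose product is anchored in the membrane by its N terminus and released by cleavage, had an FPKM of 1.33, 0.884 and 0.691 in control and of 4.90, 2.90 and 3.22 in CITED2-deficient libraries. The groups were apart, with a log2 fold change of 1.24 (SE 0.18, limma adjusted p = 0.00051). *Mmp11*, which is activated inside the cell by furin, had an FPKM of 1.08, 1.61 and 1.57 in control and of 2.12, 1.36 and 1.18 in CITED2-deficient libraries. Its libraries overlapped, its log2 fold change was 0.065 (SE 0.17, limma adjusted p = 0.771), and the sign turned without control replicate 1 or CITED2-deficient replicate 1. *Mmp19* lay close together in all 6 libraries, at 13.6, 13.4 and 13.3 in control and at 14.1, 13.3 and 11.8 in CITED2-deficient ones (log2 fold change -0.039, SE 0.069, limma adjusted p = 0.661). *Mmp27*, the neighbour of *Mmp8* in the cluster, had an FPKM of 20.0, 18.4 and 18.9 in control and of 18.3, 20.1 and 18.4 in CITED2-deficient libraries, again overlapping (log2 fold change -0.014, SE 0.057, limma adjusted p = 0.853). Median-ratio and quantile scaling turned the sign of *Mmp19* and *Mmp27* and neither passed.

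Among the ADAMTS genes, 3 of 14 reached a mean FPKM of 1. *Adamts1* (chromosome 16, 85793827 to 85803113), a versican- and aggrecan-cleaving protease, had an FPKM of 0.798, 0.807 and 1.09 in control and of 3.81, 2.72 and 3.54 in CITED2-deficient libraries. Its CITED2-deficient values were all above the control values, and the log2 fold change was 1.19 (SE 0.14, limma adjusted p = 0.000108). *Adamts2* (chromosome 11, 50602084 to 50807573), the peptidase that removes the N-terminal propeptide of fibrillar procollagens, had an FPKM of 1.80, 1.11 and 1.40 in control and of 5.76, 4.24 and 4.20 in CITED2-deficient libraries. The groups did not overlap and the log2 fold change was 1.23 (SE 0.15, limma adjusted p = 0.000129). *Adamts10* (chromosome 17, 33524204 to 33553782), which binds fibrillin, was the most abundant ADAMTS gene and the one that was lower, at 18.6, 17.5 and 18.9 in control and at 15.7, 14.9 and 15.6 in CITED2-deficient libraries. Every CITED2-deficient value was below every control value, but the log2 fold change of -0.24 (SE 0.05, limma adjusted p = 0.005) became -0.14 after median-ratio scaling and was then not past the threshold (limma adjusted p = 0.052).

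Of the TIMPs, an abundant gene did not pass the threshold and a pair of scarcer ones were higher. *Timp2* (ENSMUSG00000017466, chromosome 11, 118301069 to 118355740) had an FPKM of 468, 483 and 468 in control and of 476, 480 and 485 in CITED2-deficient libraries, values that overlap. Its log2 fold change was 0.022 (SE 0.026, limma adjusted p = 0.496), whereas after median-ratio scaling it was 0.13 and past the threshold as higher (limma adjusted p = 0.00694), as it was after quantile scaling (0.083, limma adjusted p = 0.0186). *Timp1* (chromosome X, 20870166 to 20874735), an inducible inhibitor that also acts as a growth factor, had an FPKM of 5.92, 5.80 and 6.33 in control and of 22.1, 14.5 and 16.7 in CITED2-deficient libraries. The control values were tight, all CITED2-deficient values were above them with replicate 1 highest, and the log2 fold change was 1.40 (SE 0.13, limma adjusted p = 2.25e-05). *Timp3* (ENSMUSG00000020044, chromosome 10, 86300372 to 86349506), which binds to matrix and inhibits aggrecanases and ADAM17 as well as MMPs, had an FPKM of 3.58, 2.44 and 3.45 in control and of 35.7, 14.1 and 13.2 in CITED2-deficient libraries. Replicate 1 was 2.61 times the mean of the other CITED2-deficient replicates, which themselves lay far above the control libraries. The log2 fold change of *Timp3* was 2.27 with all libraries (SE 0.32, limma adjusted p = 0.000323) and 1.83 without that library (limma adjusted p = 1.14e-05). *Timp4* was under 10 fragments in every library.

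Each of these inhibitor genes except *Timp2* lies within a synapsin gene on the opposite strand, *Timp1* in *Syn1*, *Timp3* in *Syn3* and *Timp4* in *Syn2*, and whether fragments were counted by strand is not stated. *Syn1* had an FPKM of 14.8 to 15.5 in control and of 13.4 to 13.8 in CITED2-deficient libraries, the opposite order to that of *Timp1*, and *Syn3* was at most 0.207 in any library. Other overlapping listed genes on the opposite strand include *Tmem198b* with *Mmp19*, *Chchd10* with *Mmp11* and *Tbc1d2b* with *Adamts7*.

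**Figure D3:**
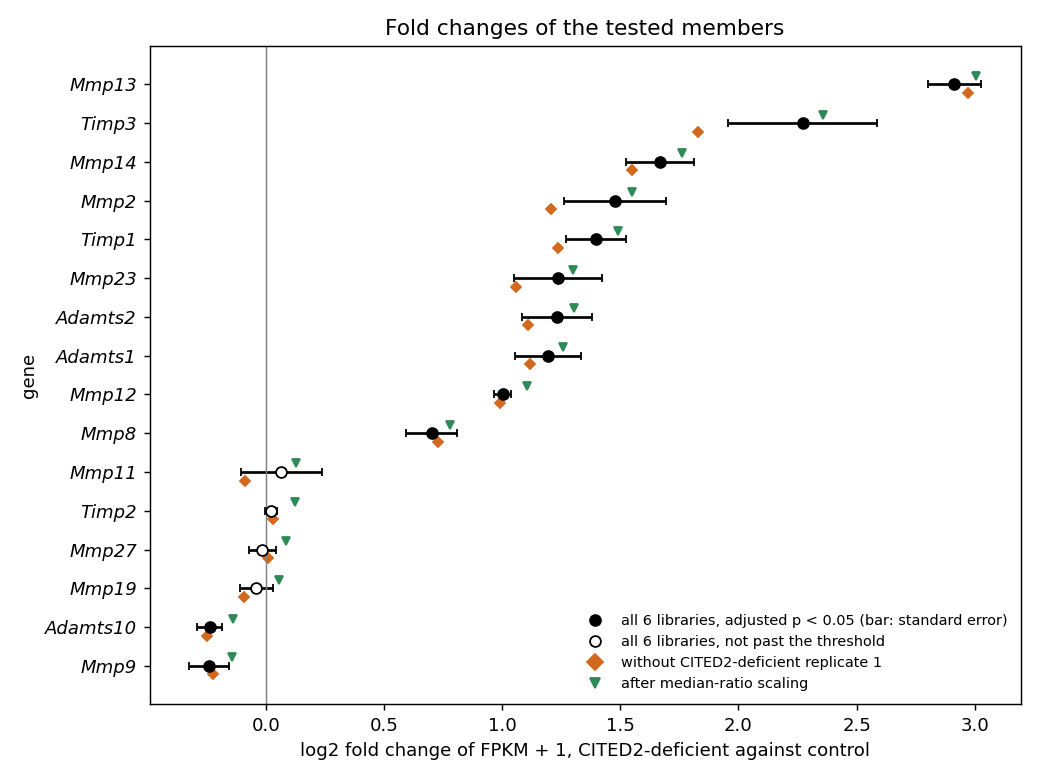
Log2 fold change of FPKM + 1, CITED2-deficient against control, of the 16 tested genes, with the standard error as a bar. Filled circles passed the threshold in the fit of all 6 libraries, open circles did not, orange diamonds give the value without CITED2-deficient replicate 1 and green triangles the value after median-ratio scaling. *Timp3* and *Mmp2* move most without replicate 1, from 2.27 to 1.83 and from 1.48 to 1.21.

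Of the 21 genes under a mean FPKM of 1, 5 passed in a fit of every listed gene, all of them higher, and 16 did not pass. Among the 10561 listed genes under that mean, 4.55% were higher by this test. The groups did not overlap, with CITED2-deficient above, for 9 of the 21, against 9.98% of such genes. Because the CITED2-deficient libraries were deeper, fragment numbers are given here to show precision, while the folds rest on FPKM. *Adamts12*, which can cleave cartilage oligomeric matrix protein, had 5, 2 and 8 fragments in control and 36, 27 and 35 in CITED2-deficient libraries (log2 fold change 0.30, limma adjusted p = 0.00393). *Mmp16*, a membrane-type MMP, had 5, 1 and 6 against 27, 24 and 18 fragments (log2 fold change 0.35, limma adjusted p = 0.0108). Both kept their call with any 1 library left out.

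*Mmp25*, a membrane-type MMP held by a lipid anchor and known from leukocytes, had 13, 10 and 9 fragments in control and 36, 61 and 69 in CITED2-deficient libraries (log2 fold change 0.44, limma adjusted p = 0.0146). *Adamts5*, the aggrecanase of mouse cartilage, had 11, 11 and 2 against 79, 43 and 57 fragments (log2 fold change 0.23, limma adjusted p = 0.0153). *Adamts6*, a close relative of *Adamts10*, had 33, 26 and 26 against 57, 84 and 83 fragments (log2 fold change 0.31, limma adjusted p = 0.0462). These calls were less firm: that of *Mmp25* was lost when any control library, or CITED2-deficient replicate 2 or 3, was left out (adjusted p from 0.0534 to 0.064 by limma), that of *Adamts5* without control replicate 3 (adjusted p = 0.0539 by limma), and that of *Adamts6* without any 1 library other than CITED2-deficient replicate 1.

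Further low genes reached 10 fragments in at least 1 library without passing the threshold. The proteoglycanase *Adamts9* had 23, 10 and 11 against 46, 42 and 28 fragments, and *Adamts4*, an aggrecanase, had 4, 5 and 3 against 29, 9 and 12. *Adamts4* was highest in CITED2-deficient replicate 1, as *Timp3* and *Mmp2* were. The procollagen peptidase *Adamts14* had 26, 16 and 18 against 47, 28 and 62 fragments, and *Adamts7* had 16, 15 and 11 against 26, 23 and 25. *Adamts13*, which cleaves von Willebrand factor, had 6, 9 and 6 against 6, 20 and 7.

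The stromelysins *Mmp3* and *Mmp10* were scarce, with 8, 7 and 7 against 11, 11 and 14 fragments for *Mmp3* and 2, 4 and 2 against 11, 13 and 5 for *Mmp10*. *Mmp10* did not pass with all libraries (log2 fold change 0.18, limma adjusted p = 0.139) but did without CITED2-deficient replicate 3 (0.25, limma adjusted p = 0.0361). *Mmp17*, another lipid-anchored enzyme, had 8, 6 and 5 against 19, 11 and 19 fragments. *Mmp28*, or epilysin, had 22, 16 and 20 against 33, 14 and 16, with an FPKM of 0.504 ± 0.0574 (control) and 0.406 ± 0.189 (CITED2-deficient, SD, n = 3 each). The last 7 genes, *Adamts3*, *Adamts15*, *Adamts17*, *Mmp7*, *Mmp15*, *Mmp21* and *Timp4*, stayed under 10 fragments in every library, and at this depth a difference in them was not detectable.

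Summed over each family, the transcripts of a few genes set the total, and no test was made of these sums. The summed FPKM of the 19 MMP genes was 268, 259 and 244 in control and 513, 501 and 491 in CITED2-deficient libraries, a ratio of means of 1.95. *Mmp12* alone made up 74.0% to 75.9% of that sum in control and 76.7% to 78.0% in CITED2-deficient libraries. Without *Mmp12* the sum was 64.4 ± 4.70 and 115 ± 5.90 (SD, n = 3 each), a ratio of 1.78. For the 4 TIMP genes the sum was 477, 491 and 478 in control and 534, 508 and 515 in CITED2-deficient libraries, of which *Timp2* made up 98.0% to 98.3% in control and 89.2%, 94.4% and 94.2% in CITED2-deficient replicates 1, 2 and 3. Without *Timp2* the TIMP sum was 9.19 ± 0.824 and 38.7 ± 16.5 (SD, n = 3 each), a ratio of 4.21. The 14 ADAMTS genes summed to 22.7, 20.8 and 22.5 in control and to 28.0, 24.5 and 25.8 in CITED2-deficient libraries, a ratio of 1.19. The MMP sum divided by the TIMP sum, a ratio of transcript levels that carries no information on enzyme activity and that does not depend on scaling between libraries, was 0.560, 0.528 and 0.511 in control and 0.961, 0.985 and 0.953 in CITED2-deficient libraries.

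**Figure D4:**
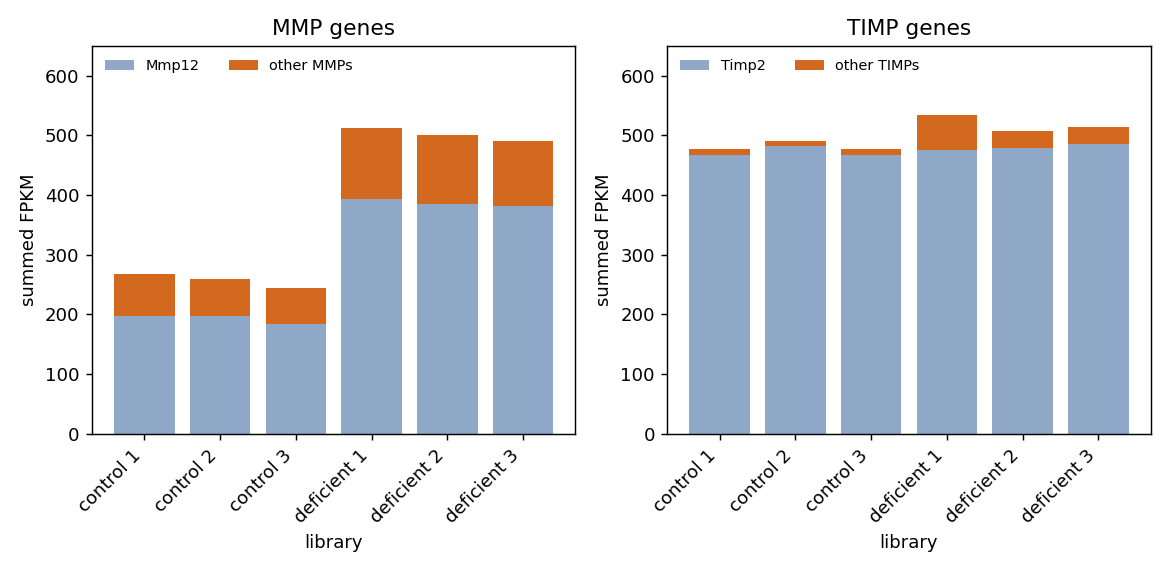
Summed FPKM of the 19 MMP genes (left) and the 4 TIMP genes (right) in each library, stacked as the most abundant gene (*Mmp12* or *Timp2*, pale blue) and all others (orange). The MMP bars reach 244 to 268 in control and 491 to 513 in CITED2-deficient libraries, while the TIMP bars, mostly *Timp2*, run from 477 to 534.

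Of the 10 higher tested genes, 8 were highest in CITED2-deficient replicate 1, and the excess differed among them. The level in replicate 1 divided by the mean of replicates 2 and 3 was 2.61 for *Timp3*, 1.93 for *Mmp2*, 1.60 for *Mmp23*, 1.42 for *Timp1*, 1.37 for *Adamts2*, 1.29 for *Mmp14* and 1.22 for *Adamts1*. It was 1.02 for *Mmp12*, 0.930 for *Mmp8* and 0.880 for *Mmp13*. Over all tested genes the median of this ratio was 1.01, with 0.830 and 1.32 as the 5th and 95th percentiles. The same library was high in fibroblast or stromal markers, of which 11 of 14 were tested. All 11 were higher in CITED2-deficient BMDMs, with or without that library, against 16.7% of all tested genes in the fit of all libraries. *Postn* and *Pdgfrb*, however, had control means under an FPKM of 1 and entered the test through their CITED2-deficient values. The replicate 1 ratio of the 11 markers ran from 0.997 for *Dcn* to 4.89 for *Col1a1*, with a median of 1.5. Their median log2 fold change was 1.53 with all libraries and 1.23 without that one. The summed FPKM of the 14 markers was 60.4 to 71.4 in control libraries, 227 and 228 in CITED2-deficient replicates 2 and 3, and 629 in replicate 1. *Col1a1*, a collagen gene of fibroblasts, had an FPKM of 15.5, 14.2 and 16.6 in control and of 305, 62.0 and 62.6 in CITED2-deficient libraries, while *Lum*, *Thy1* and *Fap* were under a mean FPKM of 1 and none of the 14 was at 0 in all libraries. The part of these markers in the differences of the protease and inhibitor genes was not tested. Without replicate 1 the same number of genes, 10, was higher past the threshold.

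**Figure D5:**
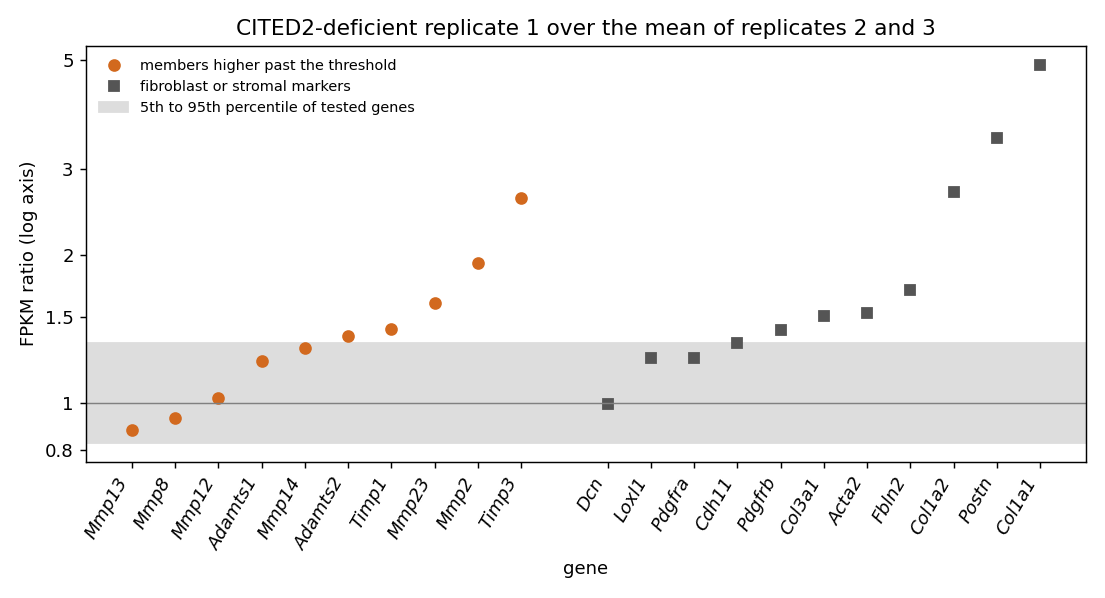
FPKM of CITED2-deficient replicate 1 divided by the mean FPKM of replicates 2 and 3 (log axis), for the 10 higher tested genes (orange circles) and the 11 tested fibroblast or stromal markers (grey squares). The grey band spans the 5th to 95th percentile of all tested genes, 0.830 to 1.32. *Mmp13*, *Mmp8* and *Mmp12* lie near 1, within the band, as do *Adamts1* (1.22) and *Mmp14* (1.29) towards its upper edge. *Timp3* at 2.61 lies among the collagen genes.

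Markers of other cells were counted in the same way. Of 7 listed endothelial markers 3 were tested and all 3 were higher, against 16.7% of all tested genes. The summed FPKM of the 7 was 11.9 to 13.8 in control and 37.4 to 42.5 in CITED2-deficient libraries. Most of that rise was in *Kdr* (mean FPKM 4.26 and 27.5, log2 fold change 2.43), and *Cdh5* had a control mean under an FPKM of 1. *Tek*, *Emcn*, *Erg* and *Tie1* were under the filter, and none passed in the fit of every listed gene. Of 4 tested megakaryocyte markers 2 were higher and 1 lower (*Pf4*, log2 fold change -2.07), against 16.7% and 34.6% of all tested genes. The call of *Itga2b* as higher was lost without CITED2-deficient replicate 1 (limma adjusted p = 0.101), which left 1 higher. The 1 tested B cell marker did not pass, and none of the 6 T and NK cell markers reached the filter (summed FPKM at most 0.948 in any library). The part of these markers in the differences above was likewise not tested.

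The genes that activate, restrain or receive these enzymes did not follow a single direction. Of 9 listed activating proteases 5 were tested. Of these, 3 were lower and 1 higher, against 34.6% and 16.7% of all tested genes, with a median log2 fold change of -0.68. The lower ones were *Hpn*, encoding the surface protease hepsin (-0.85), *Furin*, the convertase that removes the propeptide of membrane-type MMPs (-0.74), and *Plau*, the urokinase plasminogen activator (-0.68). *Pcsk7*, another convertase, was higher (0.16). Among the other inhibitors and clearance genes, *Serpine2*, a serine protease inhibitor, and *Lrp1*, an endocytic receptor for proteases, were higher, with log2 fold changes of 1.18 and 0.081. The call of *Lrp1* was lost without CITED2-deficient replicate 1 (limma adjusted p = 0.0801) and without a filter (0.1), and that of *Pcsk7* without a filter (0.0651).

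The tested genes for matrix substrates of these enzymes were all higher. Of 24 listed substrate genes 19 were tested, and all 19 passed as higher (16.7% of all tested genes were), with a median log2 fold change of 1.52, or 1.32 without CITED2-deficient replicate 1. The largest were the fibrillar collagen genes *Col1a1* (2.71), *Col1a2* (2.37) and *Col5a2* (2.19), which without that library were at 1.95, 1.90 and 1.96. *Vcan* had a control mean under an FPKM of 1 and entered the test through its CITED2-deficient values, and of the 5 untested genes *Eln*, *Lum* and *Comp* had lower means in CITED2-deficient BMDMs. *Spp1*, osteopontin, a substrate that macrophages make in quantity, had a mean FPKM of 1191 in control and 1345 in CITED2-deficient BMDMs and a log2 fold change of 0.18, which did not pass in the fit of every listed gene (limma adjusted p = 0.0556). Of these 24 genes, 5 are also on the list of fibroblast or stromal markers.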

How the data were processed

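Libraries were made by the authors from BMDM total RNA with a stranded, rRNA-depleted Illumina protocol, mapped with STAR to mm10 and quantified with Cufflinks and Cuffdiff on GENCODE genes. The authors deposited FPKM, normalised for transcript length and depth, for 22248 genes in 6 libraries. For versions and the strand setting, nothing was given in the sources used here. The description names 3 mice per genotype, but nothing ties each library to a separate culture, so p-values measure the spread between these libraries.

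Multiplying FPKM by mean GENCODE vM21 transcript length and a library constant gave whole fragment numbers (within 0.02) for 96.1% of 22239 matched genes and for 36 of the 37 members (not *Adamts10*). These numbers gave the depth of each library and the fragments quoted for low genes, and cover counting error only. No pair of libraries within a genotype was a duplicate (mean chi-square per gene from 2.30 to 6.36), and pairs across the genotypes were not compared.

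Values were tested as log2(FPKM + 1) in limma 3.58.1 (R 4.3.3) with a variance trend, on genes averaging an FPKM of at least 1, two-sided, with Benjamini-Hochberg adjustment over all tested genes and a threshold of 0.05. The fit was tested on simulated data with the same spread in both groups and no outlying library. That test therefore does not cover a library such as CITED2-deficient replicate 1. Members under that mean were read from a fit of every listed gene. Every tested member was named with its values, low members where a library held 10 fragments, and of each pathway list up to 3 genes each way. The members, the gene lists and the markers were chosen with earlier results of these data known. Alternatives were pseudocounts of 0.1 and 0.5, no filter or a mean FPKM of 5, median-ratio and quantile scaling, no trend, array weights, a replicate block, limma-voom on recovered fragments, a fold of 2 and each library left out. Reference genes and promoters were GENCODE vM21 and RefSeq on GRCm38. Figures were drawn with matplotlib 3.10.9. Some genes of the pathway lists and of the overlapping genes are not reported here.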

Additional observations from a re-analysis of the deposited data

How the results depend on the processing

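The count of 10 higher genes was 10 with any 1 library left out, 15 without a filter, 11 after median-ratio or quantile scaling (*Timp2* being added), 9 with a fold of 2 and 5 at a mean FPKM of 5, where fewer genes are tested. The 2 lower genes were less stable: 0 after median-ratio scaling and with a fold of 2, 1 after quantile scaling, without the variance trend and without a filter, and 1 to 2 with 1 library left out. The 5 low genes past the threshold numbered 2 to 5 with 1 library left out. Sign changes were seen for *Mmp27* (0.085 after median-ratio and 0.056 after quantile scaling, -0.055 to 0.018 with libraries left out), *Mmp19* (0.057, 0.021 and -0.091 to 0.028), *Mmp11* (-0.089 to 0.17 with libraries left out) and *Adamts13* (-0.014 on recovered fragments by limma-voom, -0.060 to 0.078 with libraries left out), none of which passed the threshold. The cause of these changes was not tested. The scaling matters because the log2 fold change over all tested genes had a median of -0.10 on deposited values, -0.0069 after median-ratio and -0.049 after quantile scaling, with 1950 genes higher and 4044 lower, 2696 and 2490, and 2266 and 3110. Same-numbered libraries did not deviate together (r of 0.014, 0.0078 and 0.040), which cannot show whether they were prepared as pairs. With the replicate block 10 genes were higher, 2 lower and 4 low genes past the threshold, *Adamts6* being lost (adjusted p = 0.0958 from limma). The summed MMP ratio was 2.10 and the TIMP ratio 1.16 after median-ratio scaling. Over the values of single genes, 407 kept their direction and side of the threshold, 24 lost the call, 3 gained one and 12 changed sign.

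Depth limits the low genes, since no control library held more than 33 fragments of any of the 21.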

Other observations

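The ADAM sheddases, membrane-bound relatives of the ADAMTS enzymes that release surface proteins, had small differences in both directions. Of 9 listed genes 7 were tested, with a median log2 fold change of -0.023. *Adam8* (log2 fold change 0.27), *Adam17*, the TNF convertase (0.23), and *Adam9* (0.18) were higher, while *Adam15* (-0.65) and *Adam19* (-0.29) were lower. By the same test 16.7% of all tested genes were higher and 34.6% lower. *Adam17*, which TIMP3 inhibits, had a mean FPKM of 135 in control and 159 in CITED2-deficient BMDMs. The call of *Adam19* was lost without CITED2-deficient replicate 1 (adjusted p = 0.0516 from limma).

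Of the 7 ADAMTS-like proteins, which share the thrombospondin repeats but have no protease domain, 2 were tested and *Adamtsl5* was higher (log2 fold change 0.44). Among the surface partners, *Cd44*, a docking receptor for MMP9 and MMP14 (0.28), the integrin chain *Itgb1* (0.24) and *Bsg*, the MMP inducer basigin (0.15), were higher, and *Cd63*, the TIMP1 receptor, was lower (-0.26). For both lists, the shares over all tested genes were 16.7% higher and 34.6% lower.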
